A study of Mus musculus with 68 samples.

Results

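Midbrain dopamine (DA) neurons are commonly sorted into subtypes by a small set of transcripts, and 10 such genes, among the 36172 genes of the deposited table, are described here in single neurons of the ventral tegmental area (VTA). They were chosen by gene symbol: Aldh1a1, Slc17a6, Calb1, Calb2, Gad1, Gad2, Slc32a1, Lpl, Tacr3 and Ndnf. All 10 symbols were found, once each, and all had counts in some cells. The neurons were sampled by Patch-seq, in which the contents of a cell are drawn into the recording pipette after its currents have been measured and are then sequenced. The table holds 35 cells from WT mice and 33 cells from 3xTg mice, all 12 months old, with male and female mice pooled. The 3xTg mice, a model of Alzheimer's disease, are homozygous for 3 humanized transgenes that carry disease mutations. The strain is a hybrid, given as C57BL/6;129×1/SvJ;129S1/Sv embryos injected in a B6;129. The WT mice come from a separate line of the same hybrid strain that was bred in parallel, so that line and transgenes cannot be told apart. The labels do not say which mouse a cell came from. Each genotype was therefore treated as 1 sample, no test between genotypes was made, and an SD over cells describes cells and not animals.

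Aldh1a1 encodes a retinaldehyde dehydrogenase that is used to mark a ventral group of DA neurons. Calb1 (calbindin) and Calb2 (calretinin) encode calcium-buffering proteins that are widespread in the VTA and sparser in the substantia nigra. Some VTA neurons release glutamate or GABA beside dopamine. Slc17a6 encodes VGLUT2, the vesicular glutamate transporter of the midbrain, Gad1 and Gad2 encode the enzymes that make GABA, and Slc32a1 encodes VGAT, which loads GABA into vesicles. Lpl encodes lipoprotein lipase, which splits triglycerides, Tacr3 the neurokinin-3 receptor, and Ndnf a secreted neurotrophic factor. These genes are used as labels of further DA neuron groups.

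Totals ranged from 492505 to 1327367 estimated counts per WT cell and from 676556 to 1678624 per 3xTg cell, and a median of 7476 and 8511 genes per cell had at least 1 count. Th and Slc6a3, which define DA neurons, were counted in every cell, as they had to be, since the study picked cells by their place in the slice and their electrical properties and then kept those with Th, Slc6a3 and Slc18a2. Of the markers of other cells, the endothelial genes Cldn5, Pecam1 and Ly6c1 and the astrocyte gene Aldh1l1 were at 0 in all cells. The summed microglia list (6 genes) ranged from 0 to 2870 CPM (counts per 1000000 counts) in WT cells and from 0 to 4211 CPM in 3xTg cells. Of the genes the study used to leave cells out (Aldh1l1, P2ry12, Tmem119 and Pvalb), 1 or more had a count in 10 cells, 5 of each genotype. The numbers in the cell labels fall into 3 runs of WT cells (1 to 22, 57 to 74 and 94 to 96) and 2 runs of 3xTg cells (24 to 55 and 76 to 92), and what they mark is not stated. Below, a cell is said to have a gene when at least 1 count was deposited, and levels are log2(normalized count + 1) unless CPM is named.

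The 10 genes fell into 3 classes by how many of the 68 cells had them. Gad2 and Lpl were present in all 68 cells, and Calb1 was missing from 2 of them. Calb2 (59 cells), Aldh1a1 (50 cells) and Tacr3 (47 cells) were present in most cells. Ndnf (23 cells), Slc17a6 (14 cells), Gad1 (11 cells) and Slc32a1 (5 cells) were each missing from most cells. A cell had between 3 and 8 of the 10 genes. Most often it had 6 of them (28 cells), and only 2 cells, both 3xTg (cells 40 and 50), had as few as 3.

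**Figure D1:**
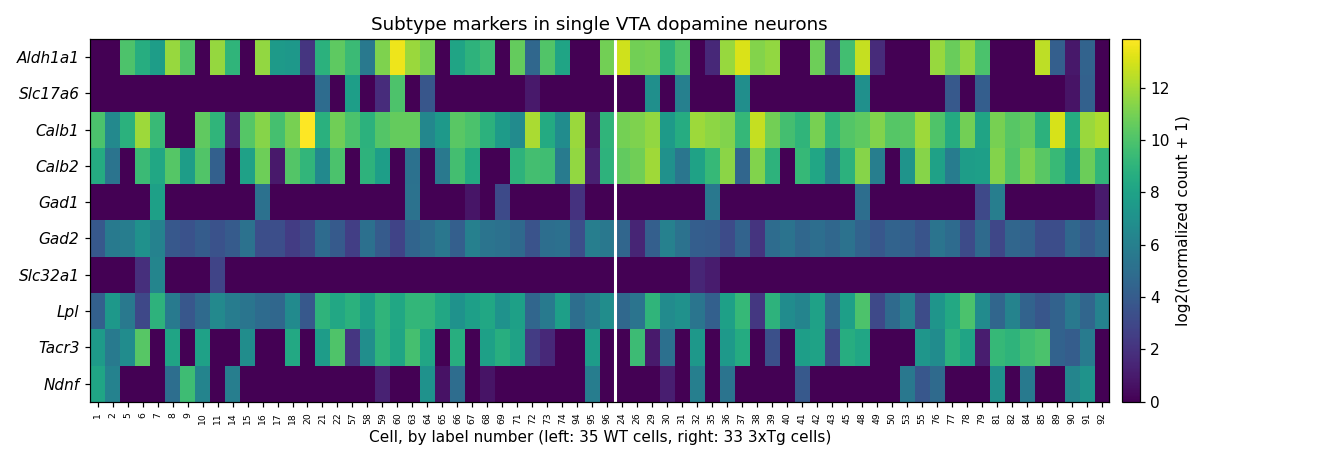
Level of the 10 genes (rows) in each of the 68 cells (columns, by the number in the cell's label, WT left and 3xTg right of the white line), as log2(normalized count + 1) on a colour scale from dark (0) to yellow. Gad2 and Lpl are coloured in all 68 cells, whereas Slc17a6, Gad1 and Slc32a1 are dark in all but 14, 11 and 5 cells.

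Aldh1a1 (mm10 chr19:20601982-20643462, plus strand) was all or none in most cells. It was present in 27 of 35 WT cells (77.1%, exact 95% interval 59.9% to 89.6%) and in 23 of 33 3xTg cells (69.7%, interval 51.3% to 84.4%). These and the following intervals are exact (Clopper-Pearson for shares, Poisson for sums) and cover counting error only. In WT cells the level ran from 0 through a median of 8.85 to a highest value of 13.52, and in 3xTg cells from 0 through 9.01 to 13.07. The genotypes overlapped over almost the whole range. Among cells with the gene, few were at low counts in WT (26 of 27 had at least 10 counts) and somewhat more in 3xTg (19 of 23). The mean level was lower in 3xTg (6.26 ± 5.39, SD, n = 33 cells) than in WT (7.16 ± 4.49, SD, n = 35 cells), whereas summed over cells Aldh1a1 had 1243 CPM in WT and 1526 CPM in 3xTg. The direction of the genotype difference thus depended on the scale.

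Counts of Aldh1a1 are given beside those of a related gene that shares part of its sequence. Aldh1a7, which encodes a closely related dehydrogenase, was present in 45 cells, all of them among the 50 cells with Aldh1a1, and its level followed that of Aldh1a1 closely (Spearman's rho 0.92 over 68 cells). Of the 31-base words in the annotated Aldh1a7 transcripts, 281 (13.8%) also occur in Aldh1a1, and 84% of the positive Aldh1a1 counts were not whole numbers. Aldh1a7 counts summed to 4.62% of those of Aldh1a1. By genotype they summed to 3093 in WT and 1442 in 3xTg, a log2 ratio of −1.21, opposite in sign to that of Aldh1a1 (0.30). How far reads moved between the 2 genes was not tested.

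Calb1 (chr4:15881264-15906709, plus strand) and Calb2 (chr8:110142538-110168206, minus strand) were the broadest of the subtype genes with high levels. No cell lacked both, so that 0 of 68 cells allows a share of up to 4.41%, and 57 cells had both (83.8%, interval 72.9% to 91.6%). The only cells without Calb1 were WT cells 8 and 9, which had 1365 and 188 counts of Calb2. Calb2 was present in 28 of 35 WT cells (80%, interval 63.1% to 91.6%) and in 31 of 33 3xTg cells (93.9%, interval 79.8% to 99.3%). The 9 cells without Calb2 were thus mostly WT, and the intervals of the shares overlap.

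Calb2 levels ran in WT from 0 through a median of 7.94 to 11.63, and in 3xTg from 0 through 8.97 to 11.91. Most cells of both genotypes lay in the same range, and 3xTg cells with low values were few. In the runs of label numbers Calb2 was present in 15 of 17, 10 of 15 and 3 of 3 WT cells, and in 19 of 21 and 12 of 12 3xTg cells. The gap between the first 2 WT runs was thus wider than that between the genotypes. Calb1 and Calb2 levels ran together over cells (rho 0.57). Over all pairs of the 11414 genes present in at least 14 cells, 95% of the rho values were at or below 0.35. Both levels also ran with the total count of the cell (rho 0.53 for Calb1 and 0.48 for Calb2), and the part of depth in this was not tested.

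Slc17a6 (chr7:51621830-51671126, plus strand) was present in 6 of 35 WT cells (17.1%, interval 6.56% to 33.7%) and in 8 of 33 3xTg cells (24.2%, interval 11.1% to 42.3%). The counts of the 6 WT cells were 1 (cell 72), 3 (cell 59), 20 (cell 64), 46 (cell 21), 183 (cell 57) and 952 (cell 60). Those of the 8 3xTg cells were 1 (cell 90), 18.9 (cell 77), 25 (cell 91), 29 (cell 79), 98.9 (cell 31), 119 (cell 29), 123 (cell 48) and 135 (cell 37). Cell 60 alone thus held 952 of the 1205 WT counts of Slc17a6. Among cells with the transcript, the WT values spread further than the 3xTg values and enclosed them. The WT cells with Slc17a6 came mainly from 1 run of label numbers (5 of 15 cells of WT 57 to 74, against 1 of 17 cells of WT 1 to 22), and in 3xTg both runs had 4 cells (of 21 and of 12).

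The GABA genes did not share a pattern. Gad1 (chr2:70562164-70602012, plus strand) was present in 6 of 35 WT cells (17.1%, interval 6.56% to 33.7%) and 5 of 33 3xTg cells (15.2%, interval 5.11% to 31.9%). WT cells had 1, 3, 11, 26, 42 and 188 counts, and 3xTg cells had 2, 13, 31, 44 and 44. The ranges overlapped apart from WT cell 7, with 188 counts, which held 69.4% of the WT sum.

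Slc32a1 (chr2:158610758-158615747, plus strand) was the rarest of the 10 genes. It had 2, 3 and 62 counts in WT cells 6, 11 and 7, and 2 and 1 counts in 3xTg cells 32 and 35. Cell 7 was thus the only cell above 3 counts. Gad1 and Slc32a1 occurred together in 2 cells, WT cell 7 (188 and 62 counts) and 3xTg cell 35 (44 counts and 1 count). The 3 WT cells with Slc32a1 also had 1356, 2870 and 2793 CPM of the summed microglia list, and the 2 3xTg cells had 26.1 CPM (cell 32) and 4.03 CPM (cell 35), whereas the median of the 63 cells without Slc32a1 was 29.9 CPM (highest 4211). Beside this, the GABA neuron list (Pvalb, Sst, Npy, Tal1, Gata2 and Gata3) summed to between 2.42 and 11.4 CPM in the 5 cells with Slc32a1 and to between 0 and 443 CPM in the others. The part of RNA from other cells in the Slc32a1 counts was not tested.

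Gad2 (chr2:22622327-22693877, plus strand) was present in every cell, at low counts. The deposited count ran from 1 to 113 with a median of 22.8, and 53 of 68 cells had at least 10 counts. Levels were alike in WT (lowest 2.45, median 4.48, highest 7.002) and 3xTg (lowest 1.46, median 4.44, highest 6.12). Among the 714 genes present in every cell, the median count of Gad2 stood at percentile 10.9. Low counts of this kind in nearly every cell were not particular to Gad2. Of 1677 genes present in at least 64 cells, 337 had a median count at or below that of Gad2, and they included Gata3 (64 cells) and Slc17a8, which encodes the vesicular glutamate transporter VGLUT3 (64 cells). Gad2 levels were lower in cells with more Th (rho −0.73) and with larger total counts (rho −0.51), and 77.9% of its counts were not whole numbers, against 0% for Gad1 and Slc32a1. Whether the low Gad2 counts come from the transcript itself was not tested.

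**Figure D2:**
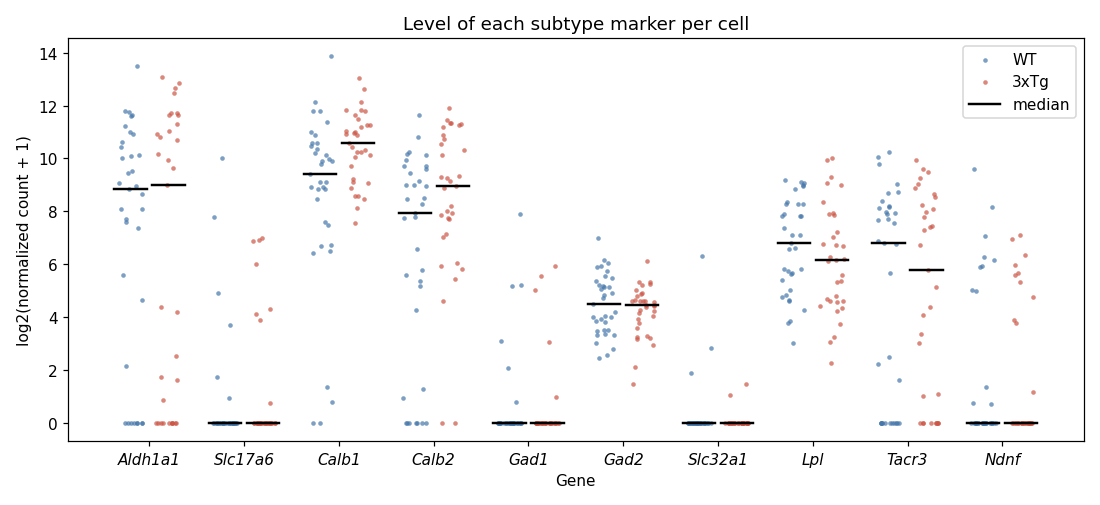
Level of each gene per cell, as log2(normalized count + 1), for 35 WT (blue) and 33 3xTg cells (red), with a black line at the median of each genotype. Horizontal scatter has no meaning. The medians of Slc17a6, Gad1, Slc32a1 and Ndnf are 0 in both genotypes, and WT and 3xTg cells overlap for each gene.

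Lpl (chr8:68880555-68906932, plus strand) was present in every cell and varied widely. The level ran in WT from 3.01 through a median of 6.81 to 9.18, and in 3xTg from 2.25 through 6.15 to 10.01. The means, 6.66 ± 1.80 (SD, n = 35 cells) and 6.16 ± 2.05 (SD, n = 33 cells), differed by less than either SD. WT cells 57 to 74 had 382 CPM of Lpl against 130 CPM in WT cells 1 to 22, a gap within WT wider than that between genotypes (234 CPM in WT and 179 CPM in 3xTg). Lpl is also expressed by microglia. The median Lpl level was 6.76 in the 23 cells with the microglia gene C1qb and 6.15 in the 45 cells without it, and over cells the rho of Lpl with the summed microglia list was 0.14. The part of microglial RNA in the Lpl counts was not tested.

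Tacr3 (chr3:134829007-134934581, plus strand) was present in 23 of 35 WT cells (65.7%, interval 47.8% to 80.9%) and 24 of 33 3xTg cells (72.7%, interval 54.5% to 86.7%). The level ran in WT from 0 through a median of 6.82 to 10.25, and in 3xTg from 0 through 5.76 to 9.96. The genotypes overlapped throughout. Cells with Tacr3 had more genes detected (median 8063) than cells without it (median 5801).

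Ndnf (chr6:65671611-65706930, plus strand) was present in 12 of 35 WT cells (34.3%, interval 19.1% to 52.2%) and 11 of 33 3xTg cells (33.3%, interval 17.96% to 51.8%). Among cells with the gene, counts ran in WT from 1 through a median of 77.5 to 673, and in 3xTg from 2 through 55 to 186. The WT range enclosed that of 3xTg. WT cell 9 held 40.9% of the WT sum. Cells with Ndnf also had more genes detected (median 8965) than cells without it (median 6922).

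Levels of different genes were compared per kb of annotated exon, as the mean over cells of CPM per kb. In WT the order was Calb2 (260 ± 317, SD, n = 35 cells), Calb1 (242 ± 278) and Aldh1a1 (239 ± 348), followed by Tacr3 (62.03 ± 75.8) and Lpl (23.4 ± 24.7). In 3xTg it was Calb2 (478 ± 482, SD, n = 33 cells), Calb1 (385 ± 292), Aldh1a1 (309 ± 392), Tacr3 (53.1 ± 68.3) and Lpl (18.4 ± 22.6). The other 5 genes had means of at most 6.59 CPM per kb. The first 3 genes differed from each other by less than their SDs over cells and could not be ranked, nor could Gad2, Slc17a6 and Ndnf. The step from Aldh1a1 to Tacr3 was larger than the SD of Tacr3 and smaller than that of Aldh1a1 in both genotypes.

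**Figure D3:**
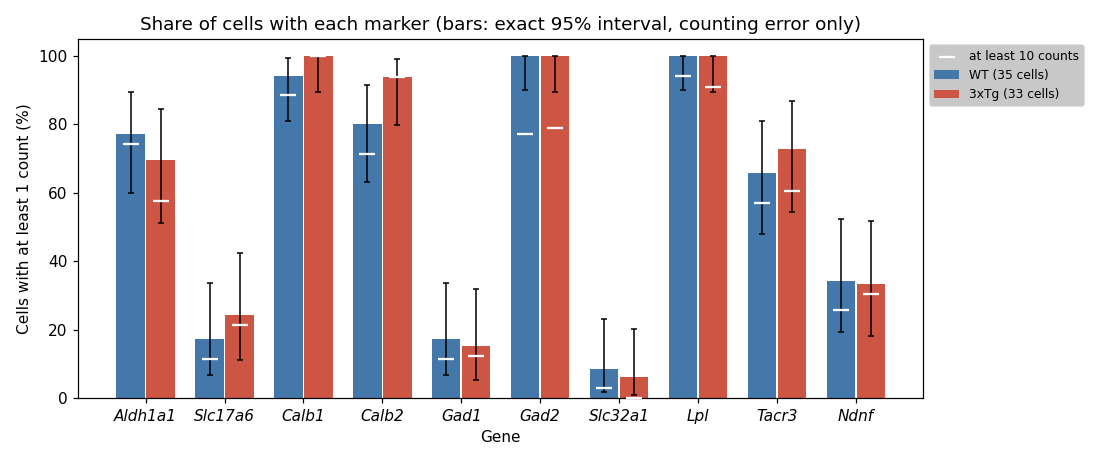
Share of cells (%) with at least 1 count of each gene in 35 WT (blue) and 33 3xTg cells (red). Error bars are exact 95% intervals that cover counting error only, and white dashes mark the share with at least 10 counts, which for Gad2 was 77.1% in WT and 78.8% in 3xTg. The intervals of both genotypes overlap for all 10 genes.

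Between genotypes, the share of cells was higher in 3xTg for 4 genes (Slc17a6, Calb1, Calb2 and Tacr3), lower for 4 (Aldh1a1, Gad1, Slc32a1 and Ndnf) and equal for Gad2 and Lpl. For a gene present in at least 14 cells the median difference in share was 7.53 percentage points higher in 3xTg, so only Calb2, at 13.9 points, lay above this median among the 10. In the sums over cells, 4 genes were at least 2-fold lower in 3xTg (Slc17a6, Gad1, Slc32a1 and Ndnf) and 0 were at least 2-fold higher. By the difference of the mean level over cells the counts were 0 lower and 2 higher (Calb1, 1.87, and Calb2, 2.07), and with DESeq2 size factors in place of CPM the sum of Calb2 was also past 2-fold higher (1.03). By the difference of the mean level, 72.8% of the 11414 genes present in at least 14 cells were above 0, with a median of 0.44. The share of genes past 2-fold on that measure is not given here, so its counts of 0 and 2 have no such share beside them. In the sums, 10.5% of the 11414 genes were at least 2-fold lower and 8.82% at least 2-fold higher in 3xTg. Gad1 and Slc32a1 are counted in too few cells to be among these 11414. Over all genes with a count, which include them, 21.4% were at least 2-fold lower and 18.5% at least 2-fold higher. The median log2 ratio of the 10 genes was −0.42, and that of the 11414 genes present in at least 14 cells was −0.05.

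The 4 genes that were lower in 3xTg are those present in fewest cells, and each difference rested to a large part on 1 WT cell. The log2 ratio of summed CPM (3xTg over WT) of Slc17a6 was −1.24 (interval −1.39 to −1.09) with all cells and 0.96 without WT cell 60, which turns its direction. That of Gad1 was −1.13 (interval −1.44 to −0.82) and became 0.53 without WT cell 7. Slc32a1, with 67 counts in WT and 3 in 3xTg, gave −4.59 (interval −6.90 to −2.98), and −0.90 without WT cell 7. Ndnf gave −1.36 (interval −1.49 to −1.23), and −0.65 without WT cell 9, and it turned to 0.81 between the second runs of label numbers. Without the respective WT cell, none of the 4 was 2-fold lower. When the highest cell of each genotype was left out, Slc32a1 (−2.43) and Ndnf (−1.04) were still at least 2-fold lower, and Slc17a6 (0.60) and Gad1 (0.0074) were not. Several markers of other cells were also lower in 3xTg. All 6 genes of the GABA neuron list were at least 2-fold lower in summed CPM (Gata3 by a log2 ratio of −2.26 and Pvalb of −2.31), as were 3 of 6 astrocyte genes (among them Slc1a3, −3.47, and Gja1, −5.52) and 3 of 6 microglia genes (among them C1qb, −2.08). Over all genes with a count, 21.4% were at least 2-fold lower. For some of these markers the highest WT cell of the gene held much of the WT sum, with 1047 of 1104 counts for Gja1, 516 of 1046 for Gata3 and 41.9 of 46 for Pvalb. Npy and Tal1 were counted in 1 WT cell each, and Sst in 2 WT cells and 1 3xTg cell. Gata2 was counted in 3 WT and 5 3xTg cells, with sums of 11 and 5 counts. Of the 6 oligodendrocyte genes 3 were at least 2-fold lower and 2 (Mog and Olig1, at 0 in WT) higher, and the log2 ratio was 0.74 for the astrocyte gene Gfap and 0.27 for the microglia gene Cx3cr1. The part of RNA from other cells in the differences of Gad1 and Slc32a1 was not tested.

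The log2 ratios of the other 6 genes lay between −0.45 (Gad2) and 0.89 (Calb2). Those of Lpl and Aldh1a1 differed in direction between the runs of label numbers. Lpl was at −0.38 over all cells, at 0.66 between the first runs of both genotypes and at −1.42 between the second, and Aldh1a1 was at 0.30, 1.20 and −0.71. Tacr3 was at −0.28 in the sums and at 0.10 in the mean over cells. Calb2 had 481 CPM in WT and 894 CPM in 3xTg, a log2 ratio of 0.89 (interval 0.87 to 0.92), and its mean level was 2.07 higher in 3xTg (6.32 ± 3.99 in WT, SD, n = 35 cells, and 8.39 ± 2.95 in 3xTg, SD, n = 33 cells). The mean level of the median gene was 0.44 higher in 3xTg on the same scale. Only Calb1 and Calb2 of the 10 exceeded this value, and their mean differences stood at percentiles 96.1 and 97.7 of the 11414 genes. At the other end, the mean differences of Aldh1a1 (−0.89) and Lpl (−0.50) stood at percentiles 1.07 and 5.76. The difference of the Calb2 means was smaller than the SD over cells in either genotype. Calb1 levels ran in WT from 0 through a median of 9.41 to 13.87, and in 3xTg from 7.56 through 10.58 to 13.05. Its mean level was 1.87 higher in 3xTg, which is more than the SD over 3xTg cells (1.36) and less than that over WT cells (3.37), and its log2 ratio of summed CPM was 0.63 (interval 0.62 to 0.65). WT cells 8 and 9 had 0 counts of Calb1, cell 95 had 1 and cell 14 had 2, whereas the lowest 3xTg count was 313. Among cells with the gene, which still include cells 95 and 14, the difference of the means was 1.35.

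Co-detection was then examined over all 45 pairs of the 10 genes, and the pairs described below were picked after all values had been seen. As a measure of association, phi was calculated from the presence or absence of both genes in the 68 cells. All genes share the depth and complexity of their cell. Over 48240753 pairs of genes present in 10 to 58 cells the median phi was 0.15, and 90% of pairs lay between −0.09 and 0.37.

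**Figure D4:**
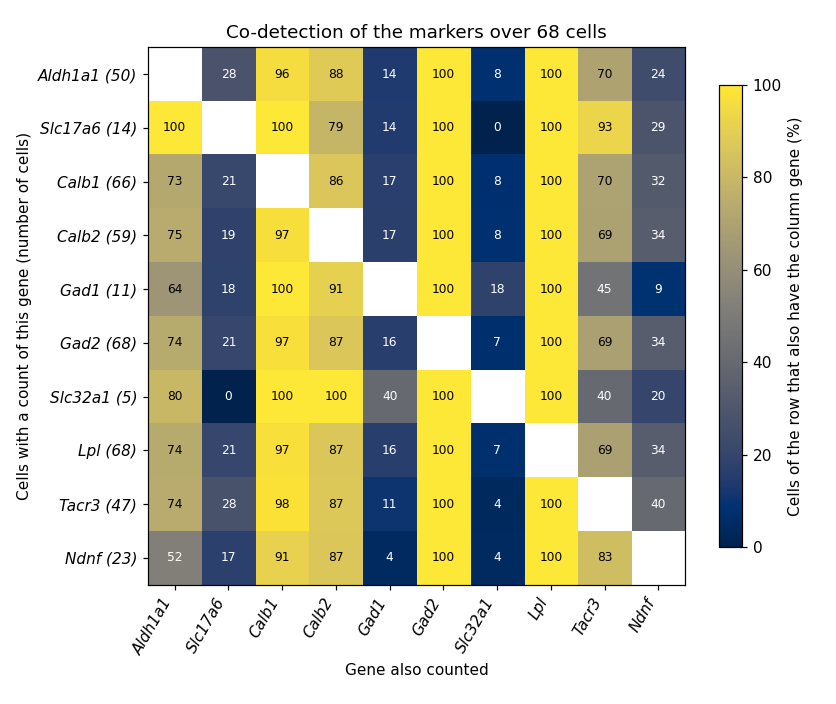
Co-detection of the 10 genes over the 68 cells. Each square gives the percentage of the cells with the row gene (number of cells in parentheses) that also had the column gene. All Slc17a6 cells had Aldh1a1 and none had Slc32a1, and Ndnf was found in 24% of the Aldh1a1 cells.

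Slc17a6 lay inside the Aldh1a1 group. All 14 cells with Slc17a6 also had Aldh1a1 (100%, interval 76.8% to 100%), against 36 of the 54 cells without Slc17a6 (66.7%, interval 52.5% to 78.9%). The median Aldh1a1 level was 10.43 in the Slc17a6 cells and 7.90 in the other 54. In deposited counts, the cell with the most Aldh1a1 was in both genotypes also the cell with the most Slc17a6 (WT cell 60, 10783 and 952 counts, and 3xTg cell 37, 9984 and 135 counts), whereas on the normalized scale 3xTg cell 48 (6.98) was above cell 37 (6.87) for Slc17a6. The nesting held in each genotype (6 of 6 and 8 of 8 cells) and with at least 10 counts of both genes (11 of 11 cells). Its phi of 0.31 was not unusual, however, since 12.9% of all pairs reached it.

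Cells with Slc17a6 had more genes detected (median 9129) than cells without it (median 7480.5), and levels of Lpl and Tacr3 ran with the number of genes detected (rho 0.32 and 0.34). The part of this in the following values was not tested. The median Lpl level was 8.61 in the 14 Slc17a6 cells and 5.98 in the other 54 cells (rho of the levels 0.39). Tacr3 was present in 13 of the 14 (92.9%, interval 66.1% to 99.8%) and in 34 of the other 54 cells, with a phi of 0.26 that 21.1% of all pairs reached. With at least 10 counts of each gene, Tacr3 was present in 7 of 11 Slc17a6 cells.

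No cell had both Slc17a6 and Slc32a1, and 0 of 68 cells allows a share of up to 4.41%. With Slc32a1 in only 5 cells, the phi of this pair was −0.14, and nothing is read from the absence. Slc17a6 and Gad1 occurred together in 3xTg cells 48 (123 and 31 counts) and 79 (29 and 13 counts) and in 0 of 35 WT cells, which allows up to 8.57%. None of Slc17a6, Gad1 and Slc32a1 was present in 42 cells (61.8%, interval 49.2% to 73.3%), 21 of each genotype.

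Ndnf and Aldh1a1 were the pair with the most negative phi of the 10 genes. Ndnf was present in 12 of the 50 cells with Aldh1a1 (24%, interval 13.1% to 38.2%) and in 11 of the 18 cells without it (61.1%, interval 35.7% to 82.7%). The phi was −0.35, and 0.0352% of all pairs of genes had one as low or lower. This pair was picked as the lowest of the 28 pairs with a phi, which has no value for pairs with Gad2 or Lpl because all cells have them. The phi was −0.32 within WT and −0.37 within 3xTg. It was −0.15 among the 34 cells with more genes detected than the median cell and −0.57 among the other 34, and the part of library complexity in this was not tested. Some cells had high counts of both. WT cell 64 had 3463 counts of Aldh1a1 and 224 of Ndnf, and WT cell 9 had 973 and 673. Cell 9 also had 1599 CPM of the microglia list, 4498 genes detected and 443 CPM of the GABA neuron list, the highest of the 68 cells. All of the 443 CPM came from Gata3, the only gene of that list with a count in cell 9. Gata3 was present in 64 of the 68 cells. The part of RNA from other cells in the counts of cell 9 was not tested.

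Only 7 of 68 cells (10.3%, interval 4.24% to 20.1%) had neither Aldh1a1 nor Ndnf, 3 of them WT and 4 3xTg. Of the 11 cells with Ndnf and without Aldh1a1, 9 had Tacr3. None had Slc17a6, as had to be, because all 14 Slc17a6 cells had Aldh1a1. Over the 68 cells the phi of Tacr3 and Ndnf was 0.21, at percentile 66.1 of all pairs. Both cells without Calb1 had Ndnf and Aldh1a1 (WT cell 8 with 36 and 3909 counts, and WT cell 9). Gad1 cells seldom had Ndnf (1 of 11) and had Tacr3 in 5 of 11, against 22 and 42 of the 57 cells without Gad1.

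**Figure D5:**
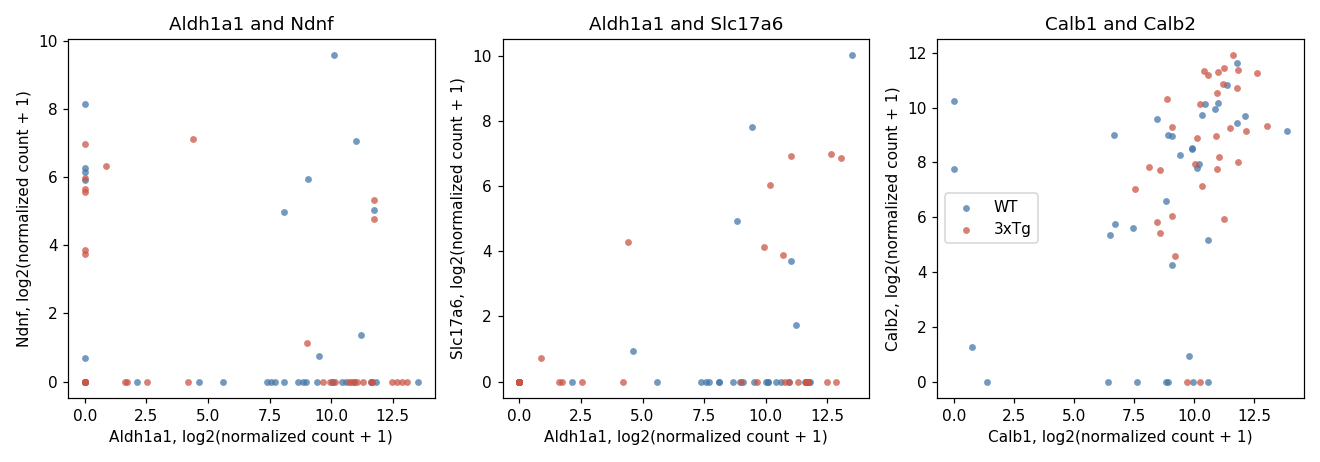
Levels of 3 pairs of genes in single cells, as log2(normalized count + 1), for WT (blue) and 3xTg (red) cells. Many cells lie along the axes for Aldh1a1 and Ndnf (left), every cell with Slc17a6 lies to the right of 0 for Aldh1a1 (middle), and Calb1 and Calb2 levels run together (right, rho 0.57).

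Of a list of 12 other genes in use as DA neuron subtype labels, Vip was at 0 in every cell and 11 were counted. In 3xTg, 2 of the 12 (Neurod6 and Igf1) were at least 2-fold lower and 0 at least 2-fold higher in summed CPM, beside 21.4% and 18.5% of all genes with a count. Anxa1, which encodes annexin A1 and labels a ventral Aldh1a1 group, was present in 30 of 50 Aldh1a1 cells (60%, interval 45.2% to 73.6%) and in 1 of the 18 others (5.56%, interval 0.14% to 27.3%). The neuropeptide gene Grp was present in 35 of 50 against 5 of 18 cells, and the transcription factor gene Neurod6 in 25 of 50 against 2 of 18. Otx2, a transcription factor gene of ventral VTA neurons, was present in 14 of 50 against 1 of 18, and Cbln4, a secreted synaptic organizer gene, in 22 of 50 against 1 of 18. Sox6, a transcription factor gene that labels mainly nigral DA neurons, went the other way, with 8 of 50 against 8 of 18 cells, as did the potassium channel gene Kcnj6 (22 of 50 against 11 of 18) and the neuropeptide gene Cck (41 of 50 against 17 of 18). Lmo3 (38 of 50 against 14 of 18) and Slc17a8 (47 of 50 against 17 of 18) differed little, and Igf1 was present in every cell. Phi with Aldh1a1 was also set against all pairs of genes present in 10 to 58 cells. It stood at percentile 99.3 for Anxa1, 95.3 for Grp, 93.7 for Cbln4 and 92.9 for Neurod6. For Otx2 it stood at 73.5, which is not unusual, and for Sox6, Cck and Kcnj6 at 0.11, 1.89 and 2.02.

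Among Ndnf cells, Sox6 was present in 10 of 23 against 6 of the other 45, and Neurod6 in 5 of 23 against 22 of 45. Grp (10 of 23 against 30 of 45) and Anxa1 (8 of 23 against 23 of 45) were also present in a smaller share of Ndnf cells, whereas Otx2 (6 of 23 against 9 of 45) and Cbln4 (7 of 23 against 16 of 45) differed little. Among all pairs, the phi of Ndnf stood at percentile 91.4 with Sox6, 0.24 with Neurod6, 0.55 with Grp and 1.87 with Anxa1. Slc17a6 cells, all of which are also Aldh1a1 cells, had Neurod6 in 11 of 14 against 16 of 54. They had Drd2, the dopamine autoreceptor gene, in 12 of 14 against 23 of 54, whereas 26 of 50 Aldh1a1 cells and 9 of 18 others had it. The phi of Slc17a6 stood at percentile 96.9 of all pairs with Neurod6 and 92.7 with Drd2. Slc17a6 cells also had more genes detected (median 9129 against 7480.5), and the part of this was not tested. Pitx3, a transcription factor gene of DA neurons, was present in 14 of 47 Tacr3 cells and 0 of the other 21, cells that also had fewer genes detected.

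Apart from the members, of 7 genes that make, take up or break down GABA and glutamate, 3 were at least 2-fold lower in 3xTg in summed CPM (Slc17a7, Gls2 and Glul) and 0 at least 2-fold higher. Slc17a7, which encodes VGLUT1, was counted in 2 WT cells, of which 1 held 274 of the 275 counts, and in no 3xTg cell. Abat, which encodes the GABA-degrading transaminase, was present in 51 of 68 cells, namely in 8 of 11 Gad1 cells and 43 of the other 57. These counts stand beside the shares of all genes with a count given above (21.4% lower and 18.5% higher).

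The genes whose levels were most like those of each member over the 68 cells were found by Spearman's rho among 11413 other genes. All points share library depth, so that the values are descriptions. Beside Aldh1a7 and Anxa1 (rho 0.65), Gkn1 was most like Aldh1a1 (rho 0.53), and 7 genes reached 0.5. For Slc17a6 only Smurf2 (rho 0.52) and Adcyap1 (rho 0.51), the gene of the neuropeptide PACAP, reached 0.5. Lpl was most like Kcnab1 (rho 0.67), which encodes a potassium channel subunit, Neurod6 (rho 0.64) and Gkn1 (rho 0.60).

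Tacr3 was most like Maob (rho 0.56), which encodes monoamine oxidase B, Fam3c (rho 0.52) and Smyd2 (rho 0.51). Ndnf was most like Fbxo38 (rho 0.55), Bdh1 (rho 0.54) and Zcchc7 (rho 0.51). For Lpl 18 genes reached 0.5. For Calb1, 333 genes reached 0.5, led by Scg2 (rho 0.76), Ahi1 and 6330403K07Rik, and for Calb2, 140 genes did, led by Zwint, Morf4l1 (both rho 0.64) and Cnn3 (rho 0.63). For Gad2, 401 genes reached 0.5, led by A730017L22Rik (rho 0.76), Rdh1 (rho 0.75) and the vomeronasal receptor gene Vmn1r58 (rho 0.72), and the last 2 of these were present in 67 cells each. Gad1 and Slc32a1 were present in too few cells for this comparison, which took members with a count in at least 14 cells.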

How the data were processed

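The authors captured polyadenylated RNA of single patched neurons, amplified it by PCR, and used Strand NGS 4.0 to trim reads, align them to RefSeq transcripts of mm10, remove duplicates and count reads per gene. The deposited values used here are estimated counts, of which 55.3% of those above 0 were not whole (tolerance 0.001). The log2 values deposited beside them had been scaled by the authors (DESeq2) and are not used here. 0 sample columns were left unassigned.

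Presence is a deposited count of at least 1. Levels are log2(count / size factor + 1), a scale that understates differences of low counts, with size factors calculated as median ratios over 787 genes. Sums used counts rounded to whole numbers and are given as CPM, and log2 ratios are 3xTg over WT. A call is a 2-fold ratio. Intervals are at 95%, and the upper limit for 0 cells is 3 cells of the total. Amplified reads without stated molecular identifiers are not independent molecules. Exon lengths and 31-base words came from GENCODE M21, and coordinates from the authors' table.

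The 10 genes, the gene lists and the rules were chosen with earlier results of these data known. One listed gene is not reported here, and its list is given without it. The genes named for likeness were the 3 with the highest rho, named where it was at least 0.5. Alternatives were other count minimums, pseudocounts of 0.1 and 10, thinning each cell to 700471 counts (30 WT and 31 3xTg cells left), other scalings, omission of cells with other cell types' markers, runs of label numbers, each genotype alone and leaving out each cell. Splitting cells by genes detected and leaving out the highest cell were chosen after seeing the data. No cells were clustered, and doublets were not called. The calculations were tested on simulated data. Python 3.11.15, numpy 2.4.6, scipy 1.17.1, pandas 2.3.3, matplotlib 3.10.9, R 4.3.3 and edgeR 4.0.16 (TMM factors) were used.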

Additional observations from a re-analysis of the deposited data

How the results depend on the processing

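No paired analysis was possible because WT and 3xTg cells share no label numbers and no test was made. With 1 sample per genotype and 35 and 33 cells, shares of rare genes have wide intervals. Of the shares, log2-ratio counts and co-detection values, 199 were called unchanged under an alternative and 30 moved. Shares and co-detection values were held against their exact interval, and the log2-ratio counts against a fixed fold and not a spread. Many of the 199 could hardly move. Leaving out 1 cell changes a share of 35 or 33 cells little, and Gad2 and Lpl, present in every cell, stay at 100% when cells are left out. The log2 ratios of single genes were less stable, with 23 within their counting interval, 87 counted as outside it and 11 turned after having been past 2-fold. The 87 include the shares of all genes past 2-fold, lower and higher, which have no counting interval. Some alternatives were differences of the mean level, an unlike measure that was held against the interval of a ratio of sums. With at least 10 counts, Gad2 was present in 77.1% of WT and 78.8% of 3xTg cells, Slc32a1 in 0% of 3xTg cells and Tacr3 in 63.6% of Slc17a6 cells. In the first runs of label numbers Slc17a6 was present in 5.88% of WT cells. In the second runs Calb1 (WT) and Calb2 (3xTg) were present in 100% of cells, Tacr3 in 91.7% of 3xTg cells, and Slc32a1 in 0% of WT and 0% of 3xTg cells. Tacr3 was present in 100% of Slc17a6 cells within WT and in cells with fewer genes detected, and leaving out 1 cell gave 92.3% to 100%. Ndnf was present in 39.1% of Aldh1a1 cells among cells with more genes and 11.1% among those with fewer.

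The count of genes at least 2-fold lower in 3xTg, 4 over all cells, was 0 by the mean over cells (1 with a pseudocount of 0.1, 0 with 10), and 2 in the second runs (Slc17a6, −4.01, and Lpl, −1.42, which is not among the 4, while Slc32a1 was at 0 in both), without the highest cells and, at the lowest, when 1 cell was left out. The 0 genes at least 2-fold higher became 2 by the mean over cells at each pseudocount and in the first runs, and 1 with DESeq2 size factors, with TMM factors, in the second runs, without the highest cells and at most when 1 cell was left out. The log2 ratio of Slc17a6 turned from −1.24 to 0.38 by the mean over cells, 0.61 and 0.13 with pseudocounts of 0.1 and 10, 3.01 in the first runs, 0.60 without the highest cells and between −1.60 and 0.96 when 1 cell was left out. That of Gad1 turned to 0.42 without cells with a marker of another cell type, 0.084 in the second runs, 0.0074 without the highest cells and between −1.65 and 0.53 when 1 cell was left out. That of Ndnf turned to 0.81 in the second runs. Of the ratios within 2-fold, Lpl turned to 0.66 in the first runs, Aldh1a1 to −0.71 in the second runs and −0.89, −1.20 and −0.45 by the mean over cells with pseudocounts of 1, 0.1 and 10, and Tacr3 to 0.10 and 0.30 by that mean with pseudocounts of 1 and 0.1. Apart from the omission of single cells, the cause of these shifts was not tested.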
